A study of Homo sapiens with 6 samples.

Results

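The genes described here are 36 genes of squamous differentiation and of proteins secreted by stratified epithelia. They were taken by symbol from the 27914 genes of the deposited expression table, and all 36 symbols were found. They encode precursors of the cornified envelope, the enzyme that cross-links it, keratins and a desmosomal cadherin, kallikrein proteases, protease inhibitors, and secreted or surface proteins. All libraries came from MCF10A, a human mammary epithelial line that is immortal but does not form tumours and has basal features. One group carries the genotype α-/-;βin (3 libraries) and the control cells are named SCRin control, with a wild-type genotype (3 libraries). Both groups received doxycycline for 3 days, per the labels. The labels do not expand "in" or SCR, and α and β are read here as the α and β PI5P4K lipid kinases because the series title names PI5P4K. They do not say whether the replicates came from separate cultures or whether either genotype is a single clone, so the tests reflect the spread among these libraries, which may be technical.

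In stratified epithelia, cells that leave the basal layer build a protein shell, the cornified envelope, beneath their membrane. Transglutaminases cross-link involucrin, small proline-rich proteins and other precursors into it. Kallikrein proteases cut the desmosomes that hold the outermost cells together, and cystatins, serpins and whey acidic protein inhibitors restrain proteases in and around the cells. Breast epithelium is not cornified, but cultured mammary epithelial cells of basal type express a number of these genes.

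Expression was given as TPM (a transcript abundance corrected for gene length and scaled to the same total in each library), so levels of different genes can be set side by side, but the number of reads behind a value is unknown. The targeted genes were checked first. PIP4K2A, encoding the α enzyme, measured 4.09, 4.16 and 4.35 TPM in α-/-;βin libraries, against 19.8, 20.2 and 21.7 TPM in SCRin libraries. PIP4K2B, which encodes the β enzyme, was at 8.20, 8.69 and 11.6 TPM in α-/-;βin libraries, against 20.8, 23.1 and 21.4 TPM in SCRin libraries. Basal markers (KRT5, KRT14, KRT17, TP63, ITGA6 and ITGB4) were all expressed, with a summed level of 1902 to 2434 TPM in α-/-;βin and 1125 to 2152 TPM in SCRin libraries. Among 8 luminal markers 5 averaged at least 1 TPM, and the sum of the 8 was 1427 to 1956 TPM in α-/-;βin and 1413 to 2161 TPM in SCRin libraries. AREG, KRT18 and KRT8 made up nearly all of that sum. AREG alone measured 747 to 1389 TPM in α-/-;βin and 685 to 1529 TPM in SCRin libraries. KRT19, ESR1 and PGR averaged under 1 TPM. The fibroblast sum of 6 markers was 2.73 to 6.08 TPM in α-/-;βin and 1.96 to 6.32 TPM in SCRin libraries, with COL3A1 listed at 0 throughout. Of 5 leukocyte markers, PTPRC was listed at 0 in all libraries and CD68 and CD14 made up nearly all of a sum of 43.5 to 45.7 TPM in α-/-;βin and 43.1 to 47.6 TPM in SCRin libraries. Of 6 markers of suprabasal keratinocytes, KRT1, LOR, DSG1 and DSC1 were listed at 0 in every library, and KRT10 made up nearly all of a sum of 30.1 to 33.5 TPM in α-/-;βin and 31.6 to 36.6 TPM in SCRin libraries. Among the basal markers the groups did not overlap for KRT5 (841 to 1053 TPM in α-/-;βin and 576 to 837 TPM in SCRin libraries), ITGA6 (379.9 to 457 TPM in α-/-;βin and 239.6 to 339 TPM in SCRin libraries) and TP63 (25.1 to 29.6 TPM in α-/-;βin and 13.1 to 18.9 TPM in SCRin libraries). KRT5, ITGA6 and TP63 were higher in α-/-;βin libraries, and 5.64% of all tested genes did not overlap in that direction. The lack of overlap was not particular to basal markers. The leukocyte marker CD14 was also higher, at 7.05 to 9.48 TPM in α-/-;βin and 2.64 to 5.998 TPM in SCRin libraries. The fibroblast marker LUM was lower, listed at 0 in all α-/-;βin libraries and at 0.111 to 0.287 TPM in SCRin libraries. No marker of these 5 lists passed the test described next. The part of the basal markers in the differences of the squamous genes was not tested.

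Levels of the squamous genes ranged widely. Over the 6 libraries, 6 of the 36 averaged more than 100 TPM (SERPINB5, SFN, SLPI, CSTB, DMKN and CSTA), 12 averaged between 1 and 100 TPM, and 18 averaged under 1 TPM. The test took in genes that averaged 1 TPM or more over the 6 libraries, which kept 18 of the 36. Of these, 16 averaged at least 1 TPM in both groups, while SPRR1B and SERPINB3 did so in α-/-;βin libraries only and passed the filter through that group. Of the 18 that were not tested, 7 were listed at 0 in all 6 libraries and 11 had some signal, of at most 2.82 TPM in any library. The groups were compared with limma on log2(TPM + 1), with p-values adjusted by Benjamini-Hochberg over 12096 genes and a threshold of 0.05. Of the 18 tested genes, 2 were lower in α-/-;βin cells (DMKN and CST6), 0 were higher and 16 did not pass. Over all tested genes, 1.83% were called lower, 0.364% higher and 2.19% in either direction. The counts in the rest of this paragraph leave out SPRR1B and SERPINB3, which reached the test through the group where they are high. Of the other 16, 2 were higher and 2 lower at p under 0.05 before adjustment, against 3.72% and 8.17% of all tested genes, and 11.9% in either direction. The groups did not overlap for 2 that were higher (CSTA and SFN) and 3 that were lower (DMKN, CST6 and SPRR2D), against 5.64% of all tested genes in the higher direction, 11.4% in the lower and 17.1% in either. The median log2 change was -0.0029 over the 16 and 0.13 over all 18, against -0.01 over all tested genes. The filter was applied anew with each library left out. The median over the members kept was -0.10 without α-/-;βin replicate 1, where SPRR1B and SERPINB3 fell below the filter. It was -0.03 without SCRin replicate 2, where both genes stayed in. The sign of the median therefore rests on those genes and on single libraries. In these bulk RNA samples, fewer cells of a kind and less RNA per cell cannot be told apart.

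**Figure D1:**
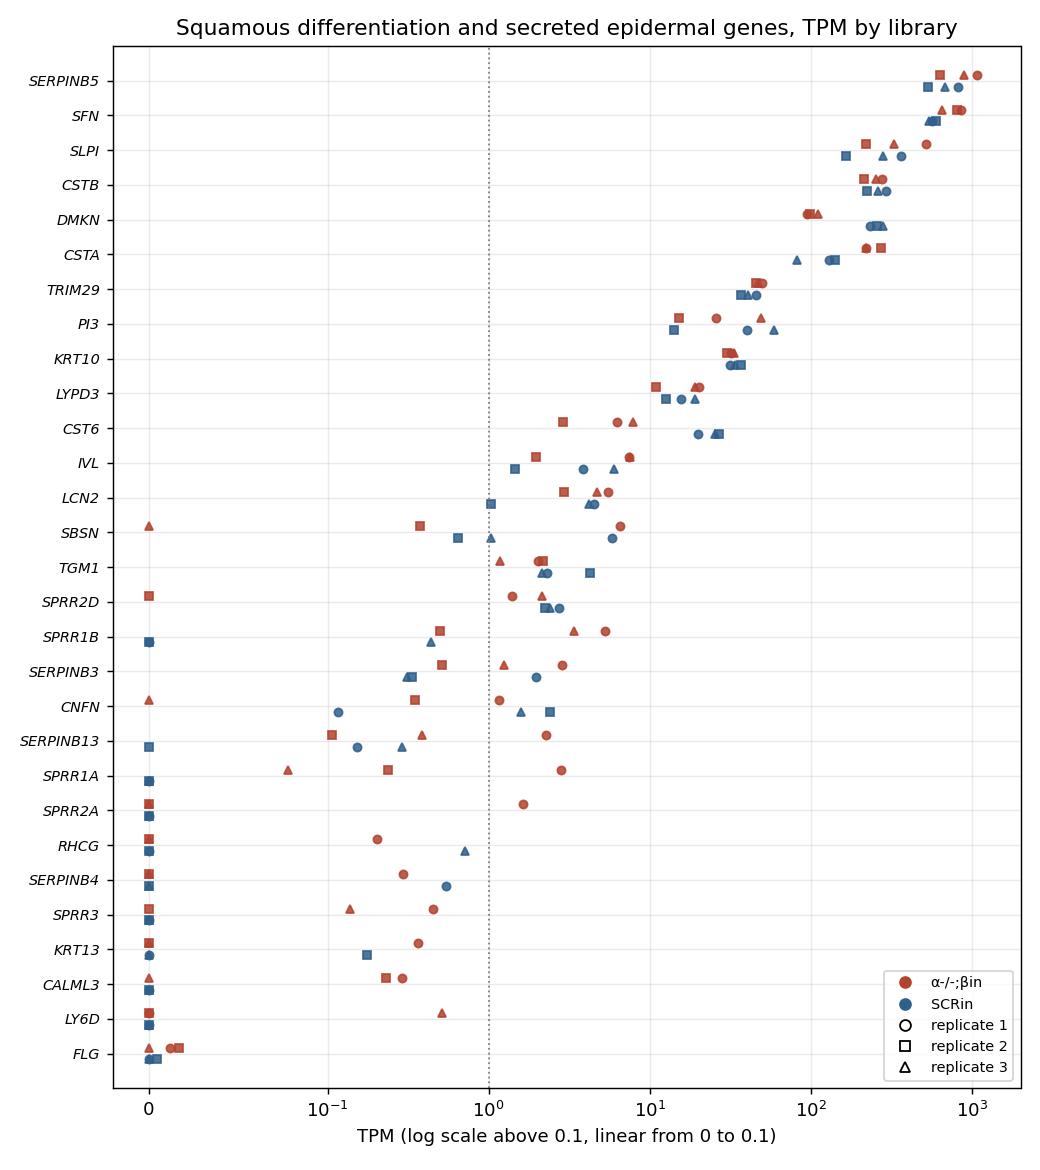
TPM of the 29 squamous genes with any signal (rows, by mean level) in 3 α-/-;βin libraries (red, upper points of each row) and 3 SCRin libraries (blue, lower points). Marker shape gives the replicate number and the dotted line marks 1 TPM, with SERPINB5, SFN, SLPI, CSTB, DMKN and CSTA near or above 100 TPM and SPRR1A and the genes below it at 0 in 3 or more libraries.

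**Figure D2:**
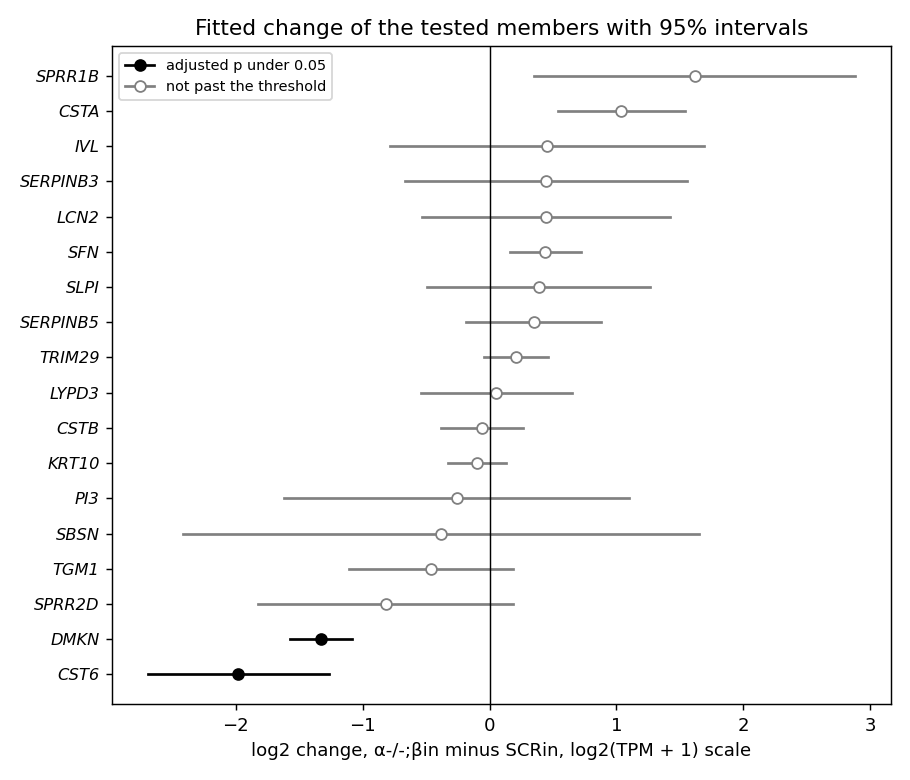
Fitted log2 change (α-/-;βin minus SCRin, on the log2(TPM + 1) scale) of the 18 tested squamous genes with 95% intervals from limma. DMKN and CST6 (filled) are past the threshold on the lower side, and the intervals of CSTA and SFN lie above 0 although their adjusted p did not pass. SPRR1B and SERPINB3 reached the filter through their high group only, and their intervals are not used.

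DMKN, which encodes the secreted epidermal protein dermokine, had the clearest difference. It measured 95.1, 98.4 and 111 TPM in α-/-;βin libraries, against 233, 257 and 279 TPM in SCRin libraries. The groups did not overlap, and the spread within each group was small. The means were 102 ± 8.40 TPM in α-/-;βin cells and 256 ± 23.1 TPM in SCRin cells (SD, n = 3 each), or 39.6% of the SCRin level. The log2 change was -1.33 (SE 0.10, 95% interval -1.57 to -1.08, limma adjusted p = 0.00349), and the exact two-sided permutation p of the TPM values was 0.1, the smallest that 3 libraries against 3 can give. The call held under each of the 15 alternatives run, with adjusted p between 0.000667 and 0.0482. Of the 10 nearest tested genes in RefSeq order on chromosome 19, 0 were called in either direction by limma, against 2.19% of all tested genes. Their log2 changes ran from -0.38 to 0.23. The table gives a single value for the gene, so its transcript forms cannot be told apart.

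Promoters of the members were searched for TGANTCA (N is any base), a loose form of the motif of AP-1 factors. Such factors are known to act on the involucrin and SPRR genes. Matches were not counted apart by their middle base. Sequences were those of RefSeq (GRCh38.p14), taken as the 250 bases before each annotated start. The motif reads the same on both strands, and no other motif was searched. Of 24 members with a promoter sequence, 12 held it in at least 1 promoter, against 8.06% of 27305 genes. The other members, CST6 and CSTA among them, had no promoter sequence and were not searched. Among tested members with a promoter sequence it was 7 of 10, against 6.09% of tested genes. The 10 include SPRR1B, which holds it, and SERPINB3, which does not. Both reached the test through the group where they are high. The 12 were DMKN, SBSN, IVL, FLG, SPRR1A, SPRR1B, SPRR2A, SPRR3, LCN2, SERPINB5, SERPINB13 and SFN. They include DMKN, which was lower, and members that did not pass or were barely detected. A match describes the letters and not a bound site. DMKN has 3 annotated starts, of which 2 hold the motif. Their upstream sequences are shown because DMKN carries the clearest difference, with the motif in capitals. The first is chr19:35513650-35513899 on the minus strand, where the motif begins 92 bases before the start. The second of the 2 with the motif is chr19:35501912-35502161 on the minus strand, where the motif begins 69 bases before the start. The upstream stretch of the start without the motif, chr19:35510471-35510720, lies between them, so first and second do not number all annotated starts.
DMKN, first start: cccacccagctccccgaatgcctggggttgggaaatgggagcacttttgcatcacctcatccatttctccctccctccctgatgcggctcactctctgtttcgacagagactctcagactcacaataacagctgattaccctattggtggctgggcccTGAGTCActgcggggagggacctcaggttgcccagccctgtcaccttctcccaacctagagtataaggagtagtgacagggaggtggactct
DMKN, second start: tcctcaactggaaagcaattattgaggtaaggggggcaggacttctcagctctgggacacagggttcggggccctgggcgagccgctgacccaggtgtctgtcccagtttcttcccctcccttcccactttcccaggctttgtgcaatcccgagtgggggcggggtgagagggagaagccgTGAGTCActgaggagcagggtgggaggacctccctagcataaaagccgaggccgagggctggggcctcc

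SBSN and KRTDAP, which encode suprabasin and a keratinocyte differentiation-associated protein, lie on either side of DMKN in the gene order and are secreted by the same epithelia. SBSN measured 6.51 and 0.374 TPM in α-/-;βin replicates 1 and 2 and was listed at 0 in replicate 3. In SCRin libraries it measured 5.83, 0.646 and 1.03 TPM. The replicate 1 libraries of both groups were the high ones, and the log2 change of -0.38 had a 95% interval from -2.41 to 1.65 (adjusted p = 0.931). KRTDAP had 1.05 TPM in α-/-;βin replicate 2 and was listed at 0 in the other libraries.

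CST6, which encodes cystatin E/M, a secreted inhibitor of lysosomal cysteine proteases, had the largest fitted fall among the tested members. It measured 6.30, 2.89 and 7.86 TPM in α-/-;βin libraries, against 20.0, 26.8 and 25.4 TPM in SCRin libraries. The groups were well apart, although α-/-;βin replicate 2 stood below its own group. The means were 5.68 ± 2.54 TPM in α-/-;βin cells and 24.1 ± 3.59 TPM in SCRin cells (SD, n = 3 each), or 23.6% of the SCRin level. The log2 change was -1.98 (SE 0.30, 95% interval -2.69 to -1.27, limma adjusted p = 0.0211, exact permutation p = 0.1). The direction held under all 15 alternatives, but the call was lost under 6 (adjusted p 0.0123 to 0.107 over the alternatives). It was lost without SCRin replicate 1 (adjusted p = 0.0519), SCRin replicate 2 (0.0770), SCRin replicate 3 (0.107) or α-/-;βin replicate 1 (0.0610), without a filter on low values (0.0636), and without the libraries numbered 2 of both groups (0.0557). None of its 10 nearest tested genes on chromosome 11 was called by limma, against 2.19% of all tested genes. Their log2 changes ran from -0.44 to 0.11, and the lowest was DRAP1 (limma adjusted p = 0.0524).

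CTSV and LGMN encode 2 of the proteases that cystatin E/M is known to inhibit, and both were expressed in both groups. CTSV, encoding cathepsin V, measured 9.08 ± 2.68 TPM in α-/-;βin cells and 6.35 ± 1.59 TPM in SCRin cells (SD, n = 3 each, log2 change 0.45, adjusted p = 0.552). LGMN, encoding the asparaginyl protease legumain, measured 21.9 ± 2.88 TPM in α-/-;βin cells and 19.9 ± 4.87 TPM in SCRin cells (SD, n = 3 each, log2 change 0.15, adjusted p = 0.835). Neither passed the test, and both were chosen after their values were seen.

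**Figure D3:**
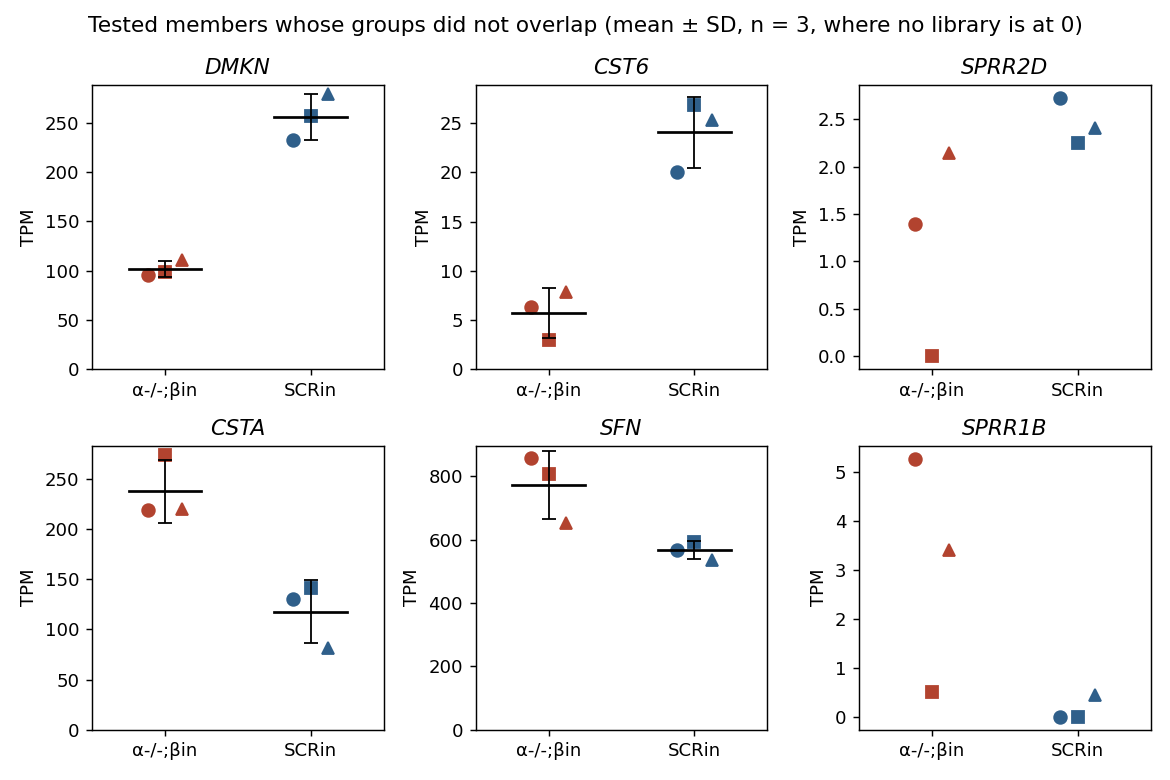
TPM by library of the 6 tested squamous genes whose groups did not overlap, with α-/-;βin on the left and SCRin on the right of each panel. Bars give mean ± SD (n = 3) where no library is at 0, and marker shape gives the replicate number (circle 1, square 2, triangle 3). DMKN and CST6 lie at 39.6% and 23.6% of SCRin, and SPRR2D and SPRR1B are at 5.26 TPM or less in every library.

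CSTA and CSTB encode the intracellular cystatins, and the groups were apart for CSTA and overlapped for CSTB. CSTA encodes cystatin A, a cysteine protease inhibitor that is also built into the cornified envelope. It measured 219, 274 and 220.4 TPM in α-/-;βin libraries, against 129.9, 141 and 81.7 TPM in SCRin libraries, and the groups did not overlap. The means were 238 ± 31.2 TPM in α-/-;βin cells and 118 ± 31.7 TPM in SCRin cells (SD, n = 3 each), 2.02 times the SCRin level. The log2 change of 1.04 (SE 0.21, 95% interval 0.54 to 1.54) missed the threshold with a limma adjusted p of 0.0665, and the exact permutation p was 0.1. Its adjusted p was 0.0414 when genes for short RNAs were left out and the rest rescaled, and ranged from 0.0112 to 0.191 over the 15 alternatives. None of the 10 nearest tested genes on chromosome 3 was called by limma, against 2.19% of all tested genes. Their log2 changes ran from -0.40 to 0.35. CSTB, encoding cystatin B, measured 277, 214 and 255 TPM in α-/-;βin libraries, against 293, 224 and 261 TPM in SCRin libraries. The groups overlapped, and the log2 change was -0.06 (95% interval -0.39 to 0.26, adjusted p = 0.931).

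Precursors of the cornified envelope other than CSTA were at low levels. IVL encodes involucrin, an early scaffold of the envelope. It measured 7.46, 1.97 and 7.50 TPM in α-/-;βin libraries, against 3.84, 1.47 and 5.97 TPM in SCRin libraries. Replicate 2 was the low library in both groups, the groups overlapped, and the log2 change was 0.45 (95% interval -0.78 to 1.69, adjusted p = 0.826). FLG, which encodes the keratin-aggregating protein filaggrin, did not exceed 0.0173 TPM in any library. CNFN, encoding cornifelin, measured 1.16 and 0.348 TPM in α-/-;βin replicates 1 and 2 and was listed at 0 in replicate 3, against 0.115, 2.42 and 1.58 TPM in SCRin libraries. Its mean over the 6 libraries lay below the filter and the groups overlapped.

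The small proline-rich proteins, flexible bridges between other envelope proteins, gave scattered low values. SPRR1B measured 5.26, 0.501 and 3.41 TPM in α-/-;βin libraries. It was listed at 0 in SCRin replicates 1 and 2 and measured 0.438 TPM in replicate 3. The groups did not overlap, but α-/-;βin replicate 2 lay close to the highest SCRin library. Because SPRR1B reached the filter on low values only through the α-/-;βin libraries, its values are given without a test. The sequence upstream of SPRR1B, chr1:153030953-153031202 on the plus strand in the same build, holds 2 matches to TGANTCA (capitals), TGAGTCA and TGAATCA. They begin 141 and 111 bases before the start.
SPRR1B: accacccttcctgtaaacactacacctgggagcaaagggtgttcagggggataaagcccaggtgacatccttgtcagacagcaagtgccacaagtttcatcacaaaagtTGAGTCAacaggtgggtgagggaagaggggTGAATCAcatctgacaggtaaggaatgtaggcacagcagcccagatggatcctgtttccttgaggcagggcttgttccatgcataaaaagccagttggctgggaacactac

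SPRR1A, the closest relative of SPRR1B, measured 2.82, 0.236 and 0.0780 TPM in α-/-;βin libraries and was listed at 0 in all SCRin libraries. α-/-;βin replicate 1 carried most of that signal, and the gene was not tested.

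SPRR2D ran the other way. It measured 1.39 and 2.15 TPM in α-/-;βin replicates 1 and 3 and was listed at 0 in replicate 2, against 2.73, 2.25 and 2.41 TPM in SCRin libraries. The SCRin libraries were close together, the groups did not overlap, and the log2 change of -0.82 had a 95% interval from -1.82 to 0.18 (adjusted p = 0.534). The size of that change depended on the library listed at 0: it was -0.33 without α-/-;βin replicate 2 and -1.88 with a pseudocount of 0.1. SPRR2A had 1.64 TPM in α-/-;βin replicate 1 and was listed at 0 elsewhere. SPRR3 had 0.451 and 0.138 TPM in α-/-;βin replicates 1 and 3 and was listed at 0 elsewhere. Genes of this family resemble each other in sequence. In GENCODE v29 transcripts, 32.7% of the 50-base words of SPRR2A and 19.3% of those of SPRR2D also occurred in other genes of the SPRR2 group. SPRR1A shared 11.3% of its words with SPRR1B, and SPRR1B shared 4.38% with SPRR1A. The sources used here do not give how reads from such stretches were shared out, so values within the family are uncertain.

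An exact 0 in this table can be a failed estimate. RPL21, a ribosomal protein gene that every cell uses, was listed at 0 in α-/-;βin replicate 3, with 253 and 124 TPM in the other α-/-;βin libraries and 325, 163 and 19.8 TPM in SCRin libraries. Of 80 ribosomal protein gene names, 3 were listed at 0 in at least 1 library. For that reason genes with an exact 0 are described as listed at 0 and not as absent.

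TGM1 encodes transglutaminase 1, the membrane-bound enzyme that cross-links the envelope. It measured 2.03, 2.18 and 1.18 TPM in α-/-;βin libraries, against 2.32, 4.23 and 2.15 TPM in SCRin libraries. The groups overlapped slightly, and the log2 change was -0.46 (95% interval -1.11 to 0.19, adjusted p = 0.607). KRT10, a keratin of suprabasal cells, measured 31.8, 30.1 and 33.5 TPM in α-/-;βin libraries, against 31.6, 36.6 and 34.0 TPM in SCRin libraries. It was among the steadiest members (log2 change -0.10, 95% interval -0.32 to 0.13, adjusted p = 0.793). KRT1, its usual partner keratin, was listed at 0 in all libraries. KRT13, a keratin of internal stratified epithelia, did not exceed 0.362 TPM. DSG1, the desmosomal cadherin of upper epidermal layers, was listed at 0 in all libraries.

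None of the kallikreins could be compared. KLK5, KLK6, KLK7, KLK8, KLK10 and KLK11 encode secreted serine proteases, several of which take part in shedding of the skin surface. All 6 were listed at 0 in every library. The zeros extended along the gene cluster on chromosome 19: of 15 genes from KLK1 to KLK15 in the table, 14 were listed at 0 in all 6 libraries. KLK1 was listed at 0 in all α-/-;βin libraries and in SCRin replicate 2, and measured 0.526 and 0.0502 TPM in SCRin replicates 1 and 3. CTU1, the gene next to the cluster beyond KLK14, was detected in every library at 2.59 to 3.86 TPM in α-/-;βin and 3.57 to 3.94 TPM in SCRin libraries. Among all deposited genes 37.4% were listed at 0 in all libraries. RPL21 was listed at 0 in α-/-;βin replicate 3 only, unlike these genes, which were at 0 in all 6 libraries. Whether their zeros are failed estimates or a lack of expression was not tested. The run of zeros therefore does not show that the kallikreins were silent.

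Clade B serpins held the most strongly expressed member. SERPINB5 encodes maspin, an intracellular serpin of mammary and other epithelia. It measured 1074, 636 and 891 TPM in α-/-;βin libraries, against 815, 531 and 682 TPM in SCRin libraries. The groups overlapped, with replicate 2 the low library in each, and the log2 change was 0.35 (95% interval -0.19 to 0.88, adjusted p = 0.650). SERPINB3, encoding squamous cell carcinoma antigen 1, measured 2.85, 0.515 and 1.24 TPM in α-/-;βin libraries, against 1.96, 0.336 and 0.311 TPM in SCRin libraries. Replicate 1 was high in both groups and the groups overlapped. It too reached the filter through its high group only, and no test is given. Its near copy SERPINB4 had 0.294 TPM in α-/-;βin replicate 1 and 0.542 TPM in SCRin replicate 1 and was listed at 0 elsewhere. SERPINB3 shared 23.3% of its 50-base words with SERPINB4, and SERPINB4 shared 20.1% with SERPINB3, so their values are uncertain. SERPINB13, a keratinocyte serpin, measured 2.28, 0.106 and 0.383 TPM in α-/-;βin libraries, against 0.153, 0 and 0.290 TPM in SCRin libraries, and was below the filter.

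Whey acidic protein inhibitors varied more between replicates than between groups. SLPI encodes a secreted inhibitor of leukocyte elastase. It measured 519, 219.8 and 329 TPM in α-/-;βin libraries, against 360.4, 166 and 279 TPM in SCRin libraries (log2 change 0.39, 95% interval -0.49 to 1.27, adjusted p = 0.777). PI3, which encodes elafin, an elastase inhibitor that transglutaminase attaches to the envelope, measured 25.7, 15.3 and 49.0 TPM in α-/-;βin libraries, against 40.0, 14.2 and 58.9 TPM in SCRin libraries. Its log2 change was -0.26 (95% interval -1.62 to 1.10, adjusted p = 0.930). In both genes replicate 2 was the low library of each group and the groups overlapped.

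SFN encodes 14-3-3σ (stratifin), an epithelial adaptor protein and p53 target. It measured 858, 807 and 652 TPM in α-/-;βin libraries, against 566, 594 and 537 TPM in SCRin libraries. The groups did not overlap, with means of 772 ± 107 TPM in α-/-;βin cells and 566 ± 28.4 TPM in SCRin cells (SD, n = 3 each). The log2 change of 0.44 (SE 0.12, 95% interval 0.16 to 0.72) did not pass (limma adjusted p = 0.172, exact permutation p = 0.1). Its upstream sequence, chr1:26862899-26863148 on the plus strand in the same RefSeq build, is shown as that of a member whose groups did not overlap in the higher direction. It holds TGATTCA (capitals), a match to the loose form TGANTCA, which begins 170 bases before the start.
SFN: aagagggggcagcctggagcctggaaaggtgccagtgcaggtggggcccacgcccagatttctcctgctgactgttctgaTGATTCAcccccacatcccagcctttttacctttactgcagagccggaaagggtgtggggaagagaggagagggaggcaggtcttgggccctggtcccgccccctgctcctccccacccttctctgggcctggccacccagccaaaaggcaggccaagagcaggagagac

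TRIM29, a tripartite motif protein of basal and squamous epithelia, measured 49.98, 45.8 and 46.7 TPM in α-/-;βin libraries, against 45.8, 36.7 and 40.8 TPM in SCRin libraries (log2 change 0.21, 95% interval -0.04 to 0.46, adjusted p = 0.523). CALML3, a calmodulin-like protein of differentiated epithelium, had 0.288 and 0.232 TPM in α-/-;βin replicates 1 and 2 and was listed at 0 in the other libraries.

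Among the remaining secreted and surface proteins none passed. LCN2 encodes lipocalin 2, a siderophore-binding antibacterial protein. It measured 5.48, 2.93 and 4.73 TPM in α-/-;βin libraries, against 4.53, 1.04 and 4.17 TPM in SCRin libraries (log2 change 0.44, 95% interval -0.54 to 1.42, adjusted p = 0.768). LYPD3, a membrane-anchored protein of the Ly6 family, measured 20.3, 10.9 and 19.2 TPM in α-/-;βin libraries, against 15.6, 12.7 and 19.1 TPM in SCRin libraries (log2 change 0.06, 95% interval -0.54 to 0.65, adjusted p = 0.973). Both pairs of groups overlapped and both genes were lowest in replicate 2. RHCG, an ammonia transporter, did not exceed 0.713 TPM, and LY6D had 0.514 TPM in α-/-;βin replicate 3 and was listed at 0 elsewhere.

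The spread between replicates was wide for several members, and the order of the replicates matched between the groups for only some of them. SERPINB3 was lowest in replicate 2 of α-/-;βin but replicate 3 of SCRin libraries. SBSN was lowest in replicate 3 of α-/-;βin but replicate 2 of SCRin libraries. Within each group, the SD of log2(TPM + 1) lay above the 90th percentile of all tested genes in both groups for 5 of the 18 tested members (IVL, SERPINB3, SLPI, PI3 and SBSN), against 5.15% of all tested genes. The 18 include SPRR1B and SERPINB3, which reached the filter through α-/-;βin libraries only. DMKN and KRT10 varied less, with DMKN at percentiles 33.2 in α-/-;βin and 31.8 in SCRin libraries and KRT10 at 17.4 in α-/-;βin and 22.5 in SCRin libraries. For 9 of the 18, replicate 2 was the lowest library in both groups: IVL, SPRR2D, CSTB, SERPINB5, SLPI, PI3, LCN2, LYPD3 and TRIM29. Among all tested genes 16.4% were lowest in replicate 2 of both groups, and 32.2% were lowest in replicate 1 of both. The median deviation of the 18 members from their SCRin means was 0.48, -0.24 and 0.24 in α-/-;βin replicates 1 to 3 and 0.15, -0.19 and 0.03 in SCRin replicates 1 to 3. Of the 6 basal markers, KRT14, KRT17, ITGA6 and ITGB4 were also lowest in replicate 2 of both groups, KRT17 with 675, 199 and 594 TPM in α-/-;βin and 419.8, 139 and 693 TPM in SCRin replicates 1 to 3. KRT5 and TP63 were not. KRT5 was highest in replicate 2 of α-/-;βin, with 841, 1053 and 988 TPM in α-/-;βin and 576, 590.3 and 837 TPM in SCRin replicates 1 to 3. The part of these markers in the spread of the squamous genes was not tested. With the libraries numbered 2 of both groups left out, a setting chosen after the values were seen, DMKN was the 1 member called (log2 change -1.30, adjusted p = 0.0482).

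**Figure D4:**
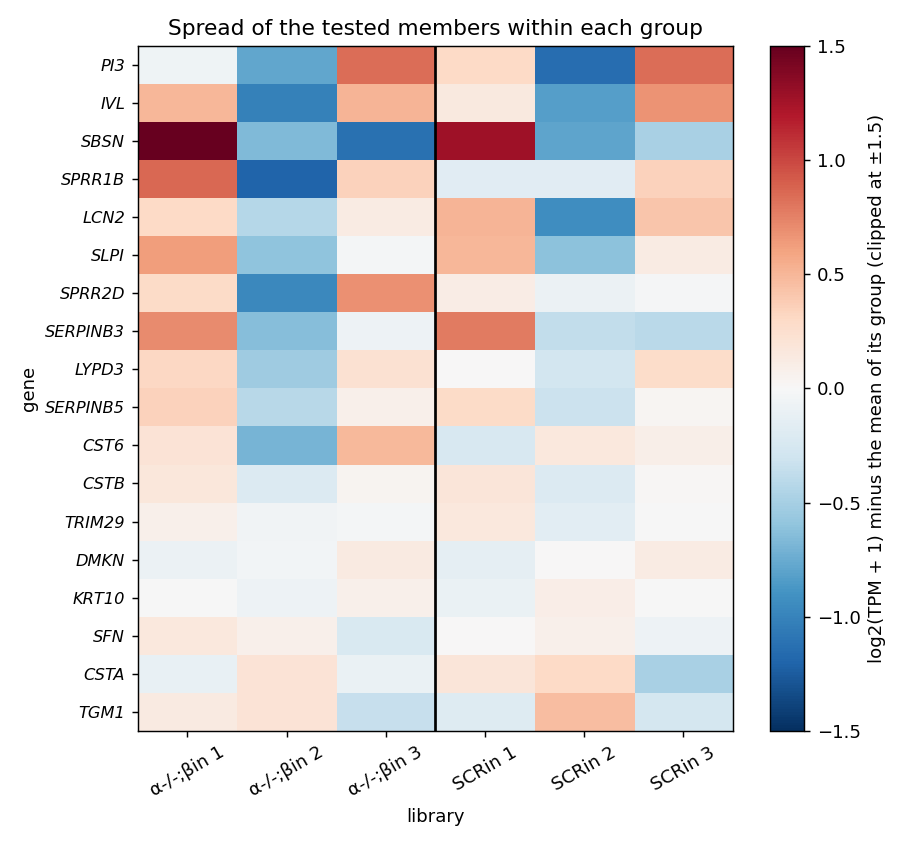
Deviation of each library from the mean of its own group, on the log2(TPM + 1) scale, for the 18 tested squamous genes (rows). The 3 columns on the left are α-/-;βin and the 3 on the right SCRin, red is above and blue below the group mean, and replicate 2 is the lowest library of both groups for 9 of the 18 genes, while DMKN, KRT10 and TRIM29 are nearly even.

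Other genes of the epidermal programme, taken from 5 lists, gave no call by limma. The first list held other cornified envelope and late differentiation genes, of which 54 were in the table, 28 were listed at 0 in all libraries and 10 were tested. Of those 10, 3 had an unadjusted p under 0.05, against 11.9% of all tested genes, and the median log2 change was -0.08. One of the 3, CLIC3, averaged 0.559 TPM in α-/-;βin and 4.58 TPM in SCRin cells and reached the filter only through the SCRin libraries. EMP1, an epithelial membrane protein and the most highly expressed of them, measured 359 ± 39.3 TPM in α-/-;βin cells and 349.6 ± 63.8 TPM in SCRin cells (SD, n = 3 each, adjusted p = 0.956). Of 46 other kallikreins, proteases and inhibitors, 15 were tested, 4 had an unadjusted p under 0.05, against the same 11.9%, and the median was 0.08. CTSC, the lysosomal dipeptidyl peptidase cathepsin C and the most highly expressed of these, measured 459 ± 109 TPM in α-/-;βin cells and 295 ± 71.95 TPM in SCRin cells (SD, n = 3 each, log2 change 0.63, adjusted p = 0.336).

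Of 44 regulators of keratinocyte differentiation, 31 were tested, 0 were called by limma and 12 had an unadjusted p under 0.05, against 11.9% of all tested genes. The median log2 change was 0.07, and the groups did not overlap for 8 regulators that were higher and 2 that were lower, against 5.64% and 11.4% of all tested genes. ID1, an inhibitor of basic helix-loop-helix factors and the most highly expressed of them, measured 187, 384 and 241 TPM in α-/-;βin libraries, against 126, 293 and 168 TPM in SCRin libraries (log2 change 0.49, adjusted p = 0.691). It was highest in replicate 2 of both groups. TP63, the master regulator of stratified epithelium, was chosen after its values were seen. It measured 29.6, 25.96 and 25.1 TPM in α-/-;βin libraries, against 18.9, 13.1 and 16.2 TPM in SCRin libraries (log2 change 0.72, adjusted p = 0.0664). The AP-1 genes of this list were also chosen after their values were seen. FOS measured 24.0, 18.2 and 24.4 TPM in α-/-;βin libraries, against 7.11, 14.3 and 6.37 TPM in SCRin libraries. Its log2 change of 1.25 was the largest rise of the list and did not pass (limma adjusted p = 0.0970). FOSL1, FOSL2, JUN and JUNB had log2 changes of -0.10, -0.24, -0.09 and -0.0005.

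Of 29 barrier lipid genes, 18 were tested, 0 were called by limma and 2 had an unadjusted p under 0.05, against 11.9% of all tested genes, with a median of -0.06. FABP5, the epidermal fatty acid-binding protein and the most highly expressed of them, measured 374 ± 27.0 TPM in α-/-;βin cells and 335 ± 30.6 TPM in SCRin cells (SD, n = 3 each, adjusted p = 0.624). Of 25 antimicrobial and other secreted genes, 3 were tested and 0 were called by limma, none with an unadjusted p under 0.05. RNASE7, an antimicrobial ribonuclease and the most highly expressed of the 3, measured 21.6 ± 2.84 TPM in α-/-;βin cells and 22.98 ± 7.87 TPM in SCRin cells (SD, n = 3 each, adjusted p = 0.986).

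**Figure D5:**
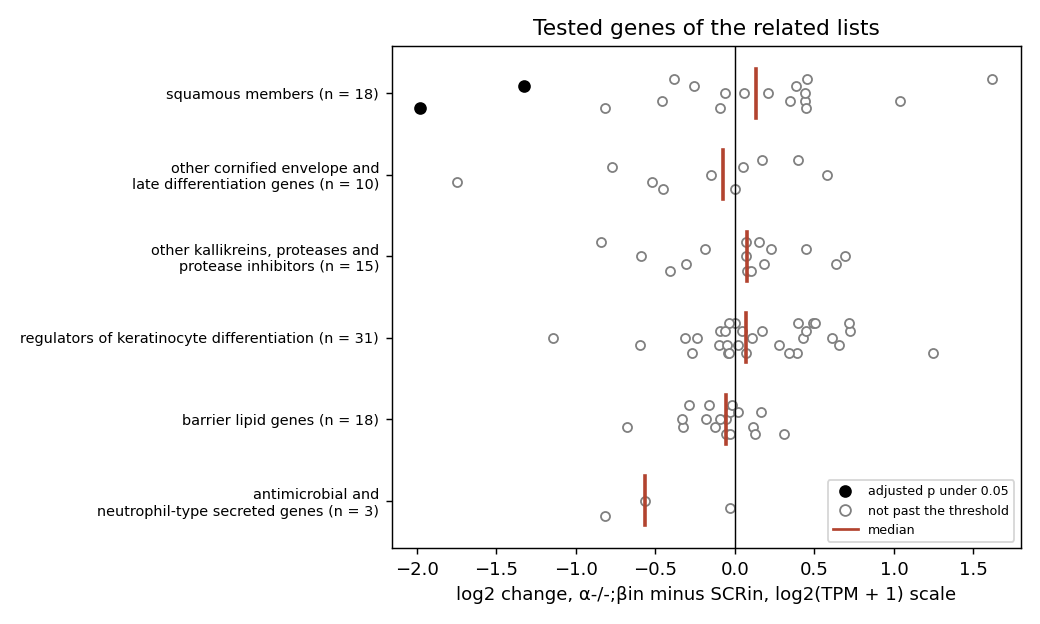
Log2 change (α-/-;βin minus SCRin, on the log2(TPM + 1) scale) of the tested squamous genes (top row) and of the tested genes of 5 related lists. Filled points passed the threshold and the vertical bars give medians. Only the squamous row holds filled points, DMKN and CST6, and the medians of the lists run from -0.57 in the antimicrobial list of 3 genes to 0.13 in the squamous row.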

How the data were processed

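RNA sequencing was done on 6 MCF10A samples. Per the labels' protocols, libraries were made from Directzol RNA with Illumina TruSeq reagents. The authors deposited 1 table of TPM for 27914 genes. Per the submitters' processing notes, the authors used hg19 and DESeq2, with no role given. Which aligner, quantifier, gene models and strand setting were used is not given in the sources. All deposited TPM columns had the same total, so read depth is unknown and no counting interval is given. Columns headed as control carry the numbers of the SCRin samples, and those headed as the experiment were assigned to α-/-;βin by number.

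Genes averaging 1 TPM or more (12096) were compared as log2(TPM + 1), which understates changes of low genes, with limma 3.58.1 in R 4.3.3 (empirical Bayes with a mean-variance trend, two-sided, Benjamini-Hochberg adjustment over all tested genes). Single genes were also compared by exact permutation of TPM. Alternatives were other pseudocounts, filters, scalings and priors, a replicate block, each library left out and, added later, the libraries numbered 2 left out.

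Every squamous gene was described. Values per library were given for genes past the threshold, genes without overlap and the strongest of each role, and in each list the called or most highly expressed gene was named. The genes and lists were chosen with earlier results of these data known. RefSeq (GRCh38.p14), which is not the authors' build, gave gene order and promoters, and matched all 36 symbols. GENCODE v29 transcripts gave shared 50-base words.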

Additional observations from a re-analysis of the deposited data

How the results depend on the processing

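The median log2 change was 0.13 over the 18 tested members, which include SPRR1B and SERPINB3. Over the 16 at 1 TPM or more in both groups it was -0.0029. The filter was applied anew with each library left out, so the members taken in differed between runs. In those runs the median ran from -0.10 to 0.25. It was -0.10 without α-/-;βin replicate 1, which dropped SPRR1B and SERPINB3, -0.03 without SCRin replicate 2 and 0.25 without SCRin replicate 1. The median over tested members ran from 0.05 to 0.20 under the other alternatives, some of which also changed the members taken in. With the replicate block, 881 genes were called in all, against 265 without it. Under that block 4 members were called higher, CSTA, SERPINB5, SLPI and SFN, with adjusted p of 0.0112, 0.0140, 0.0286 and 0.0225, and DMKN and CST6 stayed lower, against 2.35% of all tested genes called higher and 4.94% lower. The labels only number the replicates. Deviations from the group means correlated between the groups at 0.25 for number 1, 0.27 for number 2 and -0.02 for number 3. Between unlike numbers the correlations ran from -0.29 to 0.05. All were taken across 12096 genes, which are not independent. The main fit leaves the numbers out because the labels do not say that they pair the samples, and whether they do was not tested. The count of members called higher, 4 with the block and 0 without it, depends on that choice. With short RNA genes left out, 1 member (CSTA) was called higher. Without the filter on low values, 1 member (DMKN) was called lower. With the libraries numbered 2 of both groups left out, 52 genes were called in all, and 1 member was lower. With each library left out in turn, between 106 and 219 genes were called in all, 106 without SCRin replicate 3, 119 without α-/-;βin replicate 3 and 163 without α-/-;βin replicate 1. In the same runs between 0 and 1 members were called higher (SPRR1B, which reached the filter only through α-/-;βin libraries) and between 1 and 2 lower. The other alternatives kept 0 members higher and 2 lower. The cause of these moves was not tested, except that fewer libraries enter when some are left out. TPM keeps no depth, so the precision of values near or below 1 TPM is unknown.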
